A study of Rattus norvegicus with 28 samples.

Results

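Heat shock proteins and their J-domain partners form the main protein folding machinery of the cell. Their transcripts were followed in rat microglia and astrocytes stimulated with HERV-W ENV (here ENV), an envelope protein encoded by a human endogenous retrovirus, or with LPS, the lipopolysaccharide of bacterial walls, which TLR4 senses. The genes were chosen by symbol alone: every Hspa, Hspb, Hspd, Hspe, Hsph or Hsp90 symbol and every numbered Dnaja, Dnajb or Dnajc symbol in the count tables, after 5 names ending in -ps were dropped. The rule found 74 genes among 28459 symbols, of which 72 are listed in the microglial tables, 69 in the astrocyte tables of the ENV set and 70 in those of the LPS set. By the compartment in which the protein is known to act, 49 were placed in the cytosol and nucleus, 14 in the endoplasmic reticulum (ER) and 10 in mitochondria. Dnajc22 was not placed. The symbol rule also takes in Hspbp1 and Hspbap1, which encode binding partners of heat shock proteins.

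HSP70 proteins bind and release unfolded stretches of protein in a cycle driven by ATP. J-domain proteins deliver the clients and speed ATP hydrolysis, and nucleotide exchange factors such as the HSP110 proteins reset the cycle. The cytosolic set is induced by heat shock factor 1 when unfolded protein builds up in the cytosol, whereas the ER set is induced by the unfolded protein response, through ATF6, XBP1 and ATF4. In macrophages and microglia the ER-resident HSP90 protein GRP94, encoded by Hsp90b1, is needed to fold Toll-like receptors and integrins.

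The cultures were made from Wistar rat cortex at postnatal day 1 and grown in flasks for 10 days in medium with 10% fetal calf serum. Microglia were shaken off and purified with CD11b/c beads, and were stimulated 1 day after isolation; astrocytes were stimulated 3 days after isolation. ENV was a recombinant protein given at 1 µg/ml and compared with its buffer, LPS was given at 100 ng/ml and compared with H2O, and each of the 8 groups held 3 libraries in microglia or 4 in astrocytes. Neither the length of stimulation nor the litters behind the replicates could be taken from the labels. All p-values accordingly rest on the spread among these libraries, and that spread could be technical.

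Each microglial library held 26513999 to 42724111 counts and each astrocyte library 23742228 to 35326938. Levels are given as normalised CPM (counts per 1000000), which are counts scaled to the library total times its TMM factor. On that scale 3 counts are worth 0.0611 to 0.125 CPM, depending on the library, and levels below that cannot be told from a count of 0, by counting error alone. Summed markers of microglia and macrophages reached 9317 to 13349 CPM in buffer-treated microglia and 234.9 to 939.1 CPM in buffer-treated astrocytes. Summed astrocyte markers reached 10050 to 15237 CPM in the latter and 1312 to 1686 CPM in the former, where Gjb6, which encodes an astrocyte gap junction protein, was at 0 in every microglial library. Glul alone made up 1082 to 1404 CPM of the sum in buffer-treated microglia, and was at 1062 to 4105 CPM in buffer-treated astrocytes. In buffer-treated microglia Slc1a3 was at 176 to 216 CPM and Gfap at 17.5 to 38.0 CPM. In microglia the H2O and LPS libraries numbered 3 stood apart. Summed markers of the oligodendrocyte lineage were 15.4, 15.5 and 156 CPM in the H2O libraries and 5.82, 5.90 and 39.1 CPM in the LPS libraries, and results of this comparison are therefore also given without both of them. Buffer replicate 3 also differed from its group. The chi-square per gene, against counting error alone, was 17.4 between buffer replicates 1 and 2. It was 135 and 137.6 for their pairs with replicate 3. In the ENV set the libraries numbered 3 were left out singly and not together. These are bulk samples, so fewer cells of a type and less RNA per cell cannot be told apart.

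In microglia, 61 of the 74 chaperone genes had enough counts to be tested in each comparison. With ENV, 9 rose and 8 fell (edgeR, called at an adjusted p under 0.05), against 16.2% of all 12844 genes tested that were called higher and 14.7% that were called lower. With LPS, 11 rose and 8 fell, against 16% and 13.8% of all 12229 genes tested. The members called thus made up 27.9% of those tested with ENV and 31.1% with LPS, which is near the share of all genes. Of the 14 ER genes 6 rose and 1 fell with ENV (median log2 change 0.372, all genes -0.033), and 5 rose and 2 fell with LPS (median 0.371, all genes -0.024). Of the 36 cytosolic and nuclear genes tested, 3 rose and 5 fell with ENV (median 0.009) and 5 rose and 4 fell with LPS (median 0.082). Of the 10 mitochondrial genes none rose and 2 fell with each stimulus. At an unadjusted p under 0.05, 1 was higher with ENV and 2 with LPS. Here and below, the share of all genes was not taken at an unadjusted p, so such counts are not read as a response.

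**Figure D1:**
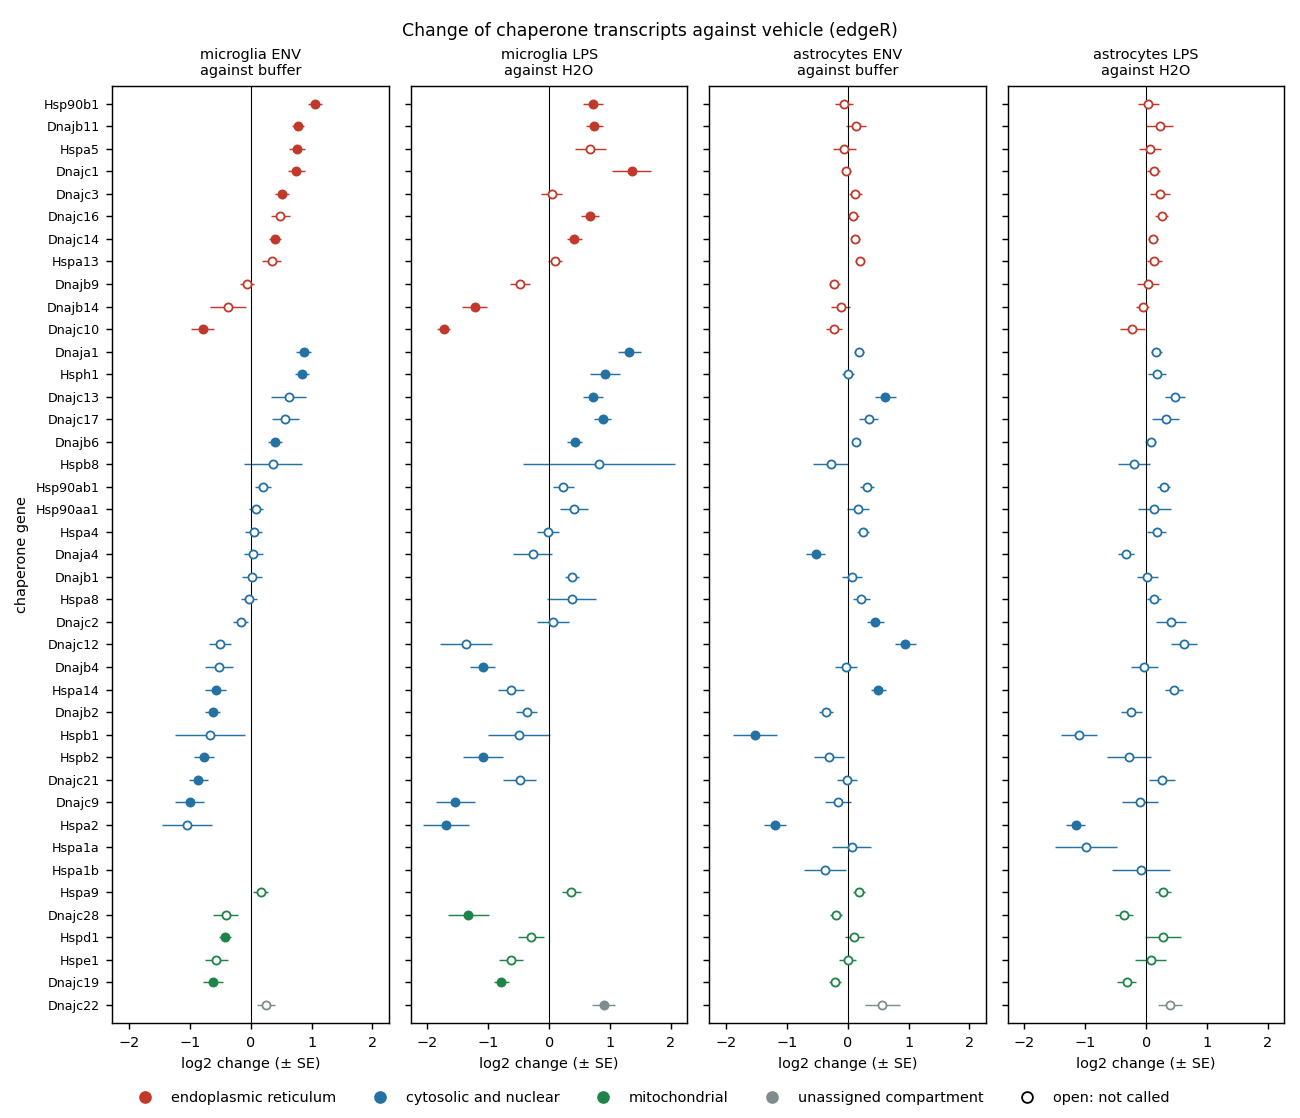
Log2 change against vehicle (x axis, with its SE) for the chaperone genes named in the text (y axis), 1 panel per comparison, coloured by compartment. Filled points passed the test and open points did not; the filled red points lie to the right in microglia (6 with ENV, 5 with LPS), apart from Dnajc10 and, with LPS, Dnajb14, and no red point is filled in astrocytes.

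The ER genes that rose with ENV were the HSP90 and HSP70 chaperones of that compartment and several of their J-domain partners. Hsp90b1, which encodes GRP94, was at 627, 596 and 570 CPM in the 3 buffer libraries and at 1217, 1328 and 1186 CPM in the 3 ENV libraries. The groups lay far apart, with a log2 change of 1.06 (SE 0.11, a 2.08-fold rise, edgeR adjusted p = 0.000945). With LPS the gene was at 876, 1098 and 1034 CPM against 672, 534 and 619 CPM with H2O. Every LPS library was above every H2O library, and the log2 change was 0.72 (SE 0.17, edgeR adjusted p = 0.024). This call was lost without both libraries numbered 3 (log2 change 0.71, adjusted p = 0.0536), with a replicate block (adjusted p = 0.054), and without H2O replicate 1, 2 or 3 or LPS replicate 2 (adjusted p up to 0.0908), while the log2 change stayed between 0.64 and 0.80.

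Hspa5 encodes BiP, the HSP70 of the ER lumen and the regulator that keeps the sensors of the unfolded protein response inactive. Its transcripts were at 632, 637 and 747 CPM with buffer and at 1047, 1164 and 1204 CPM with ENV, with no overlap (log2 change 0.76, SE 0.13, edgeR adjusted p = 0.0053). With LPS the 3 libraries spread from 602 to 1111 CPM, around 957 CPM, and overlapped the H2O libraries at 503 to 608 CPM. The change of 0.68 (SE 0.25) did not pass the edgeR test (adjusted p = 0.0873), but passed by DESeq2 (adjusted p = 0.0277) and when the 4 microglial groups were fitted jointly (adjusted p = 0.0293).

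Dnajb11 encodes ERdj3, a soluble J-domain partner of BiP. It was at 101, 103 and 115 CPM with buffer against 183, 177 and 187 CPM with ENV, and at 95.2, 82.5 and 105 CPM with H2O against 142, 165 and 165 CPM with LPS. Both treated groups lay wholly above their vehicles, with log2 changes of 0.78 (SE 0.10, edgeR adjusted p = 0.00214) and 0.74 (SE 0.14, edgeR adjusted p = 0.0134). Without H2O replicate 1 or 2 or LPS replicate 2 the LPS call was lost (adjusted p up to 0.0568).

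Dnajc1 encodes ERdj1, a membrane J protein that sits beside the ribosome at the translocon. It rose from 29.7, 32.6 and 36.1 CPM to 47.0, 57.7 and 60.5 CPM with ENV (log2 change 0.75, SE 0.14, edgeR adjusted p = 0.0079). Its ENV call was lost when the 4 microglial groups were fitted jointly (log2 change 0.76, edgeR adjusted p = 0.0723). With LPS it was at 46.5, 64.4 and 113 CPM against 29.7, 28.9 and 28.9 CPM, so that LPS replicate 3 lay far above the other LPS libraries. The log2 change was 1.35 (SE 0.32, edgeR adjusted p = 0.0252) and 0.92 (adjusted p = 0.0174) without both libraries numbered 3; the call was lost without H2O replicate 1, 2 or 3 or LPS replicate 2 (adjusted p up to 0.0899).

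Dnajc3, which encodes a BiP partner that also inhibits the eIF2α kinase PERK, was at 52.1, 54.2 and 59.0 CPM with buffer and at 72.4, 84.6 and 79.9 CPM with ENV. The groups did not overlap and the gene rose (log2 change 0.52, SE 0.11, edgeR adjusted p = 0.0134). The call was lost without buffer replicate 1 or 2 or ENV replicate 2 or 3 (adjusted p up to 0.0578). With LPS it lay between 48.8 and 72.7 CPM against 54.4 to 67.8 CPM with H2O, the groups overlapped, and the change of 0.04 (SE 0.18) did not pass (edgeR adjusted p = 0.882).

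Dnajc14 and Dnajc16, which encode membrane-bound J proteins of the ER, moved less. Dnajc14 rose by 0.40 (SE 0.10, edgeR adjusted p = 0.026) with ENV and by 0.41 (SE 0.12, edgeR adjusted p = 0.048) with LPS. Its ENV call was kept in 1 of 6 fits that left out a library, namely buffer replicate 3, and its LPS call in none. The LPS call was also lost without both libraries numbered 3 (adjusted p = 0.112), with no filter on low counts (0.0719) and with the block (0.0855). Dnajc16 rose with LPS (log2 change 0.67, SE 0.14, edgeR adjusted p = 0.0177), a call that was lost without H2O replicate 1, 2 or 3 or LPS replicate 2 (adjusted p up to 0.067). With ENV its change of 0.49 (SE 0.16) passed only with a replicate block (adjusted p = 0.0183), in the joint fit (0.0465) or by DESeq2 (0.0313), not in the unblocked edgeR fit (0.0584).

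Not every ER chaperone went up. Dnajc10 encodes ERdj5, the disulfide reductase that prepares misfolded proteins for degradation, and it moved in the opposite direction to the genes above. It was at 108, 109 and 86.2 CPM with buffer against 46.4, 74.1 and 54.6 CPM with ENV, and at 107, 102 and 100 CPM with H2O against 32.3, 29.9 and 30.8 CPM with LPS. Every treated library was below every vehicle library. The log2 change was -0.79 (SE 0.19, edgeR adjusted p = 0.0221) with ENV and -1.73 (SE 0.10, edgeR adjusted p = 0.000555) with LPS. The LPS call was kept whichever library was left out; the ENV call was lost without buffer replicate 1 or 2 or ENV replicate 1 or 3 (adjusted p up to 0.0765).

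Dnajb14, which encodes a J protein of the ER membrane, was at 11.9, 12.1 and 10.7 CPM with H2O and at 5.00, 5.93 and 3.93 CPM with LPS. The groups did not overlap and the gene fell (log2 change -1.22, SE 0.20, edgeR adjusted p = 0.00864), also without each library in turn. With ENV its libraries at 6.72, 8.04 and 5.41 CPM overlapped those with buffer at 10.3, 10.6 and 5.39 CPM (log2 change -0.38, SE 0.30, edgeR adjusted p = 0.369).

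Dnajb9, which encodes ERdj4, the J protein that returns BiP to the stress sensor IRE1, did not pass with either stimulus. It was at 17.9, 17.0 and 17.0 CPM with ENV against 17.8, 17.7 and 18.5 CPM with buffer (log2 change -0.06, SE 0.11, edgeR adjusted p = 0.735). The LPS libraries were at 16.8, 15.3 and 19.7 CPM against 27.7, 23.2 and 21.5 CPM, all lower without overlap, at a log2 change of -0.48 (SE 0.16) and an edgeR adjusted p of 0.0675. The difference passed without both libraries numbered 3 (log2 change -0.67, adjusted p = 0.0239), by DESeq2 (0.0477) and in the joint fit (0.0168). Hspa13, an HSP70 relative of the ER, changed by 0.35 (SE 0.16) with ENV and 0.10 (SE 0.12) with LPS and did not pass (edgeR adjusted p = 0.133 and 0.55).

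**Figure D2:**
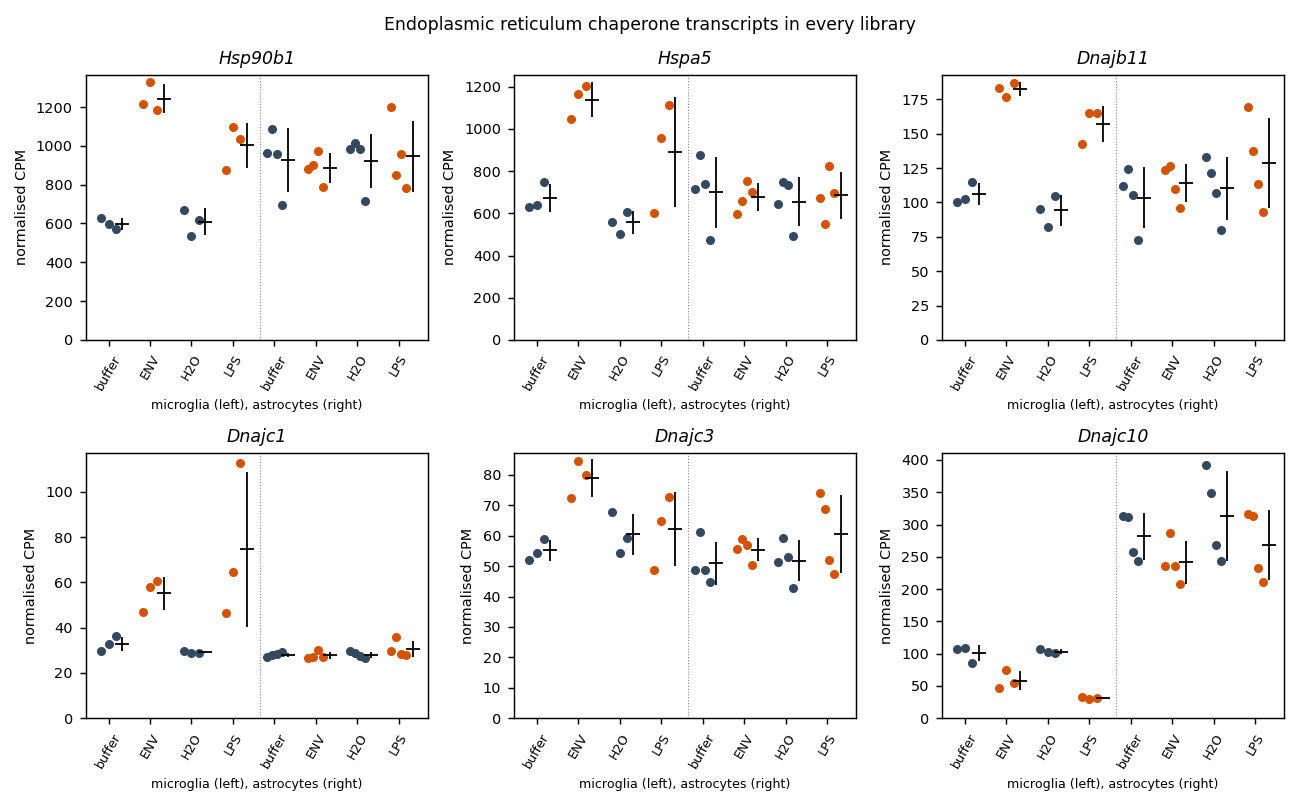
Normalised CPM (y axis, linear from 0) of 6 ER chaperone genes in every library of the 8 groups (x axis), vehicles dark and stimulated cells orange, with black marks for the group mean and bars for the SD (n = 3 in microglia, n = 4 in astrocytes). In microglia the ENV points of Hsp90b1, Hspa5, Dnajb11, Dnajc1 and Dnajc3 lie above and those of Dnajc10 below all buffer points, whereas in astrocytes the points of vehicle and stimulated cells of each gene overlap.

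Promoter sequences were read for the genes that moved together in this compartment, to show whether they carry the letters of the known response elements. The window runs from 250 bases before to 50 bases after the RefSeq start on assembly GRCr8, and 59 of the 74 genes were matched by symbol. The motifs were chosen with the results known. The ER stress element, which is bound by NF-Y and ATF6 and was searched on both strands as CCAAT, any 9 bases and CCACG, occurs in 22 of 33469 promoters (0.0657%) and in 3 of the 59 chaperone promoters (5.08%), those of Hspa5, Hsp90b1 and Dnajc3. The shorter ER stress element II, searched on both strands as ATTGG, any 1 base and CCACG, occurs in 17 promoters (0.0508%) and in the window of Dnajb11 (1.69% of the 59), where it ends on the start base itself. These are the 4 ER genes with a match, shown 5′ to 3′ on the strand of the gene with the element in capitals and up to 20 flanking bases. They lie at chr3:38452953-38453011 (plus strand) for Hspa5, chr7:23012327-23012489 (minus strand, 2 elements in opposite directions) for Hsp90b1, chr15:102432514-102432572 (plus strand) for Dnajc3 and chr11:91672800-91672830 (minus strand) for Dnajb11.
Hspa5: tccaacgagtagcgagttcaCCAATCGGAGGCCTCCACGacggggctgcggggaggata
Hsp90b1: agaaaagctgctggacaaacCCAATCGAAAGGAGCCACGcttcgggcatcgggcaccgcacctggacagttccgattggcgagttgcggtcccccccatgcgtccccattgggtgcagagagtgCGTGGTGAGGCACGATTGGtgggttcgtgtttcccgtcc
Dnajc3: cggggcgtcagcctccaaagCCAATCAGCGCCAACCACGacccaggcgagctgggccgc
Dnajb11: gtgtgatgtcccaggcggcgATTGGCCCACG

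All 4 of these genes rose in microglia with ENV. With LPS, Hsp90b1 and Dnajb11 rose while Hspa5 and Dnajc3 did not pass. Of all genes with an ER stress element in that window, 16 were tested in microglia. With ENV 6 rose and 1 fell (median log2 change 0.405), against 16.2% and 14.7% of all genes tested (median -0.033). With LPS 3 rose and 4 fell (median 0.051), against 16% and 13.8% (median -0.024). Hspa5, Hsp90b1 and Dnajc3 are among these 16, so the counts are not separate from those above. In astrocytes 1 of 17 rose and 1 fell with ENV, against 9.52% and 8.35% of all genes tested. None of 16 passed with LPS, against 2.64% called higher and 2.69% lower. A match describes letters in the sequence and not binding.

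Other ER folding and unfolded protein response genes, which were listed apart from the chaperones, gave counts of the same kind. Of 36 tested in microglia, 14 rose and 2 fell with ENV (median log2 change 0.446) and 13 rose and 2 fell with LPS (median 0.417). Among all genes tested, 16.2% were called higher and 14.7% lower with ENV, and 16% and 13.8% with LPS. P4hb, the protein disulfide isomerase gene, rose by 1.36 (SE 0.11, edgeR adjusted p = 0.000403) with ENV and 1.31 (SE 0.21, edgeR adjusted p = 0.00796) with LPS. Calr, which encodes the lectin chaperone calreticulin, rose by 1.12 (SE 0.14, edgeR adjusted p = 0.0015) and 1.14 (SE 0.20, edgeR adjusted p = 0.0104). Hyou1, the HSP110-like exchange factor of BiP, rose by 0.73 with ENV (SE 0.11, edgeR adjusted p = 0.00321). Ddit3, which encodes the stress factor CHOP, rose by 1.51 with ENV (SE 0.19, edgeR adjusted p = 0.00159) and by 1.37 with LPS (SE 0.23, edgeR adjusted p = 0.00873). Herpud1, a gene of ER-associated degradation and a known target of the same response, fell by 0.85 with ENV (SE 0.15, edgeR adjusted p = 0.00696) and by 0.97 with LPS (SE 0.25, edgeR adjusted p = 0.0328). Atf4 itself fell with ENV (log2 change -0.46, SE 0.14, edgeR adjusted p = 0.0444). The genes thus did not all move in the direction that the name of the list would give. Ero1a, which encodes the oxidase that recharges disulfide isomerases, rose with LPS by 1.48 (SE 0.26, edgeR adjusted p = 0.0108), and Edem1, of ER-associated degradation, fell with LPS (log2 change -0.69, SE 0.16, edgeR adjusted p = 0.0221).

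In the cytosol the main chaperone genes, constitutive and stress-inducible, did not rise together. Hsph1, which encodes HSP110, and Dnaja1, which encodes a J-domain partner of cytosolic HSP70, rose with both stimuli, whereas Hspa8, Hsp90aa1, Hsp90ab1, Hspa4 and Dnajb1 passed with neither. Hsph1 was at 66.0, 75.9 and 64.4 CPM with buffer and at 116, 136 and 117 CPM with ENV (log2 change 0.84, SE 0.12, edgeR adjusted p = 0.00288). The LPS libraries were at 78.5, 106 and 146 CPM against 61.8, 51.7 and 61.2 CPM (log2 change 0.92, SE 0.24, edgeR adjusted p = 0.0326). Neither treated group overlapped its vehicle. The LPS call held without both libraries numbered 3 (log2 change 0.69, adjusted p = 0.0409) and was lost without H2O replicate 1, 2 or 3 or LPS replicate 2 (adjusted p up to 0.115).

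Dnaja1 was at 118, 129 and 120 CPM with buffer and at 247, 228 and 198 CPM with ENV, and at 111, 87.6 and 104 CPM with H2O and 243, 207 and 303 CPM with LPS. The treated groups lay wholly above their vehicles. The log2 change was 0.87 (SE 0.12, edgeR adjusted p = 0.00248) with ENV and 1.32 (SE 0.19, edgeR adjusted p = 0.00581) with LPS, and both calls were kept whichever library was left out.

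Hspa8 encodes the constitutive HSP70 of the cytosol. It was at 3046, 3037 and 3391 CPM with buffer and at 2741, 3180 and 3354 CPM with ENV, with a log2 change of -0.03 (SE 0.13, edgeR adjusted p = 0.88). With LPS its libraries were at 1705, 3271 and 5441 CPM against 2767, 2591 and 2716 CPM with H2O. The LPS libraries thus lay both below and above the vehicles, the change of 0.37 (SE 0.41) did not pass (edgeR adjusted p = 0.525), and without both libraries numbered 3 it was -0.11. Summed over all cytosolic and nuclear chaperone genes, the LPS libraries were at 4984, 6738 and 9710 CPM against 5288 to 5906 CPM with H2O. Hspa8 itself makes up 1705, 3271 and 5441 CPM of these LPS sums, so the sum is not separate from it. In the same LPS libraries summed microglial markers were at 12871, 10788 and 7395 CPM. The part of the marker shift in the Hspa8 values was not tested.

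Hsp90aa1, which encodes the inducible cytosolic HSP90, was at 518 to 590 CPM with buffer and 568 to 642 CPM with ENV, and at 354 to 500 CPM with H2O and 498 to 742 CPM with LPS. The groups overlapped and the changes of 0.09 (SE 0.12) and 0.40 (SE 0.23) did not pass (edgeR adjusted p = 0.593 and 0.226). Hsp90ab1, the constitutive HSP90, changed by 0.20 (SE 0.12, edgeR adjusted p = 0.252) with ENV and 0.23 (SE 0.18, edgeR adjusted p = 0.357) with LPS. Hspa4, an HSP110 relative, changed by 0.05 (SE 0.14, edgeR adjusted p = 0.818) and -0.01 (SE 0.18, edgeR adjusted p = 0.96). Dnajb1, a strongly heat-inducible J-domain gene, was at 50.3, 36.7 and 39.3 CPM with ENV against 39.9, 37.1 and 47.5 CPM with buffer (log2 change 0.02, SE 0.16, edgeR adjusted p = 0.933). The LPS libraries were at 57.6, 50.8 and 51.9 CPM against 36.9, 42.8 and 43.8 CPM, with no overlap, at a log2 change of 0.38 (SE 0.12, edgeR adjusted p = 0.0609) that passed by DESeq2 (adjusted p = 0.02). The near-identical inducible HSP70 genes Hspa1a and Hspa1b were not analysed here in microglia.

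Heat shock elements, the binding sites of heat shock factors, were searched on both strands in the same windows as GAA, TTC and GAA with any 2 bases between neighbouring blocks. They occur in 267 of 33469 promoters (0.798%) and in 5 of the 59 chaperone promoters (8.47%), those of Hsph1, Dnaja1, Hspa8, Hspd1 and Hspe1. They are shown because genes with the element responded differently: Hsph1 and Dnaja1 rose in microglia, Hspa8 and Hspe1 did not pass and Hspd1 fell with ENV. The element of Dnaja1 lies after the start, at chr5:60638413-60638425 (plus strand), and is given alone. The others are shown with 20 bases before the element and up to 20 after it, on the strand of the gene with the element in capitals, at chr12:10427312-10427364 (plus strand) for Hsph1, chr8:50080281-50080491 (plus strand, 2 elements) for Hspa8 and chr9:64084242-64084299 (plus strand) for Hspe1. The Hspe1 site consists of 2 overlapping matches on opposite strands, and the same bases are found upstream of Hspd1, which starts on the other strand of this stretch.
Hsph1: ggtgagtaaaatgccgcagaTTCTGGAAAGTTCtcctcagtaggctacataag
Dnaja1: GAACTTTCCAGAA
Hspa8: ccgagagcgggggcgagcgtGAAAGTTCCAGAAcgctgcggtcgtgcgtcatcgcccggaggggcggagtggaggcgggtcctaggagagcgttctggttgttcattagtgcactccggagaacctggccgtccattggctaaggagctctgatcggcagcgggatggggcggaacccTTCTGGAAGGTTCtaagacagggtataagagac
Hspe1: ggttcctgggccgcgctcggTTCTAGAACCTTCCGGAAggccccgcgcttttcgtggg

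Of all genes with this heat shock element in the window, 48 were tested in microglia with ENV and 47 with LPS. With ENV 14 rose and 6 fell (median log2 change 0.178), against 16.2% and 14.7% of all genes tested (median -0.033). With LPS 11 rose and 5 fell (median 0.227), against 16% and 13.8% (median -0.024). These counts include the chaperone genes Hsph1, Dnaja1, Hspa8, Hspd1 and Hspe1, so they are not separate from the results above. In astrocytes 5 of 52 rose and 5 fell with ENV, against 9.52% and 8.35% of all genes tested. With LPS 2 rose and 2 fell, against 2.64% and 2.69%.

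Further J-domain genes of the cytosol rose in microglia. Dnajb6, which encodes a suppressor of polyglutamine aggregation, rose by 0.40 (SE 0.11, edgeR adjusted p = 0.0365) with ENV and by 0.42 (SE 0.13, edgeR adjusted p = 0.0475) with LPS. Both calls depended on the libraries: with ENV only the fit without buffer replicate 3 kept it, with LPS none of the 6 did, and the LPS call was also lost without both libraries numbered 3 (adjusted p = 0.0647), with the block (0.0629) and with no filter on low counts (0.0645). Dnajc17, which encodes a nuclear J protein linked to splicing, was at 12.4, 12 and 12.9 CPM with LPS against 7.07, 6.69 and 6.52 CPM with H2O. The groups did not overlap and the log2 change was 0.88 (SE 0.14, edgeR adjusted p = 0.00751), a call kept without each library in turn. With ENV, Dnajc17 was at 13.2, 11.6 and 12.1 CPM against 7.59, 6.47 and 10.9 CPM (log2 change 0.57, SE 0.22, edgeR adjusted p = 0.0913), which passed by DESeq2 (0.0431) and in the joint fit (0.0482).

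Dnajc13 encodes RME-8, a J protein of endosomes that acts in receptor sorting. It was at 389, 388 and 455 CPM with LPS against 292, 238 and 218 CPM with H2O and rose (log2 change 0.72, SE 0.17, edgeR adjusted p = 0.0226). The call was lost without both libraries numbered 3 (log2 change 0.55, adjusted p = 0.0535), in the joint fit (0.0614), and without H2O replicate 2 or 3 or LPS replicate 2 (up to 0.0874). With ENV it was at 340, 299 and 288 CPM against 251, 239 and 112 CPM; buffer replicate 3 lay far below, and the change of 0.62 (SE 0.29) did not pass (edgeR adjusted p = 0.15). Dnajc22, whose compartment was not assigned, rose with LPS from 17.9, 19.1 and 15.7 CPM to 28.1, 29.3 and 40.4 CPM (log2 change 0.89, SE 0.18, edgeR adjusted p = 0.0161). Its call was lost without H2O replicate 1, 2 or 3 (up to 0.0652), and with ENV its change of 0.25 (SE 0.15) did not pass (edgeR adjusted p = 0.251).

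The cytosolic and nuclear genes that fell act in several processes. Dnajc9, a histone chaperone of dividing cells, was at 36.6, 34.6 and 56.4 CPM with buffer against 17.2, 20.4 and 26.0 CPM with ENV, and at 28.8, 22.5 and 45.2 CPM with H2O against 13.3, 11.8 and 8.06 CPM with LPS. Every treated library lay below every vehicle library, at log2 changes of -1.0 (SE 0.24, edgeR adjusted p = 0.0193) and -1.54 (SE 0.32, edgeR adjusted p = 0.0168). The ENV call was lost without ENV replicate 1 or 2 (up to 0.0704), and the LPS call without H2O replicate 1 or LPS replicate 2 (up to 0.0637).

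Dnajc21, which acts in the maturation of the large ribosomal subunit, fell with ENV from 14.7, 15.8 and 13.9 CPM to 8.63, 8.72 and 7.11 CPM (log2 change -0.86, SE 0.15, edgeR adjusted p = 0.00667). Dnajb2, a J protein that binds ubiquitinated clients, fell from 30.2, 30.7 and 36.7 CPM to 21.2, 21.3 and 20.9 CPM (log2 change -0.62, SE 0.12, edgeR adjusted p = 0.00903). Both calls were kept whichever library was left out. With LPS neither passed (log2 change -0.49, SE 0.27, and -0.37, SE 0.18; edgeR adjusted p = 0.21 and 0.162), but without both libraries numbered 3 both did (log2 change -0.77, adjusted p = 0.0187, and -0.60, adjusted p = 0.021).

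Hspb2, a small heat shock protein gene best known from muscle, was at 8.44, 7.66 and 9.20 CPM with buffer and at 5.02, 4.80 and 5.10 CPM with ENV, and fell (log2 change -0.76, SE 0.16, edgeR adjusted p = 0.0133). With LPS it was at 3.07, 4.44 and 2.21 CPM against 6.51, 5.72 and 8.45 CPM (log2 change -1.09, SE 0.32, edgeR adjusted p = 0.0478). The ENV call was lost without buffer replicate 1 or ENV replicate 2 (up to 0.0564); the LPS call was lost in each of the 6 fits without a library, without both numbered 3 (0.0887), with the block (0.0768) and with no filter on low counts (0.0641). Hspa14, which encodes the ribosome-associated HSP70 partner of Dnajc2, fell with ENV (log2 change -0.58, SE 0.18, edgeR adjusted p = 0.0473) from 17.7, 18.3 and 24.1 CPM to 11.4, 14.8 and 14 CPM. No fit without a library kept that call (up to 0.138), nor did the fit with no filter (0.0524) or the joint fit (0.0621). With LPS Hspa14 was at 8.49, 9.84 and 9.77 CPM against 12.4, 12 and 18.9 CPM, at a log2 change of -0.62 (SE 0.22, edgeR adjusted p = 0.0736) that passed by DESeq2 (0.0489) and in the joint fit (0.0272).

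With LPS alone 2 other cytosolic genes passed. Dnajb4, a J protein of the Dnajb1 type, was at 6.12, 5.09 and 3.93 CPM against 11.1, 10.6 and 10.6 CPM (log2 change -1.09, SE 0.21, edgeR adjusted p = 0.0129), a call lost without H2O replicate 1 or 2 or LPS replicate 2 (up to 0.0603). Hspa2, an HSP70 best known from testis, was near the lower end of detection in microglia, at 0.761, 0.590 and 0.465 CPM with LPS against 1.62, 1.83 and 2.42 CPM. It fell by 1.69 on the log2 scale (SE 0.38, edgeR adjusted p = 0.0204), also without both libraries numbered 3 (log2 change -1.35, adjusted p = 0.0384), and was kept in 1 of the 6 fits without a library, that without LPS replicate 3. With ENV it was at 1.05, 1.12 and 0.416 CPM against 2.17, 1.73 and 1.49 CPM (log2 change -1.05, SE 0.41, edgeR adjusted p = 0.0944, and 0.0417 with the block).

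Of the genes at low levels, 2 passed with LPS in the blocked fit alone. Hspa4l, an HSP110 relative, was at 2.52, 1.10 and 7.01 CPM with LPS against 0.301, 0.264 and 2.83 CPM with H2O. Both groups were highest in the library numbered 3 and overlapped; the log2 change was 2.06 with the block (SE 0.44, adjusted p = 0.0286) and 1.64 without it (SE 1.13, edgeR adjusted p = 0.311). Hspb9, a small heat shock protein gene, was at 0.702, 0.787 and 0.320 CPM with LPS against 0.232, 0.242 and 0.0815 CPM with H2O, without overlap and close to the level of 3 counts. Its change was 1.71 with the block (SE 0.41, adjusted p = 0.0366) and 1.69 without it (SE 0.61, edgeR adjusted p = 0.0792).

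Dnajc12, which encodes the chaperone of the aromatic amino acid hydroxylases, was at 4.86, 5.69 and 6.24 CPM with ENV against 7.62, 7.57 and 8.62 CPM with buffer, and at 4.39, 3.15 and 1.37 CPM with LPS against 7.16, 7.19 and 8.58 CPM with H2O. All treated libraries lay below their vehicles. The changes of -0.50 (SE 0.18, edgeR adjusted p = 0.068) and -1.36 (SE 0.42, edgeR adjusted p = 0.0546) missed the threshold; the first passed with the block (0.0479) and by DESeq2 (0.0378), the second without both libraries numbered 3 (0.0337), in the joint fit (0.0078) and by DESeq2 (0.0109).

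Chaperones of the mitochondrial matrix did not rise with the ER set. Hspd1 and Hspe1 encode HSP60 and its lid HSP10, whose genes lie head to head. Hspd1 was at 255, 277 and 271 CPM with buffer and at 191, 213 and 195 CPM with ENV, and fell (log2 change -0.42, SE 0.10, edgeR adjusted p = 0.0214). The call was lost in the joint fit (0.116) and without buffer replicate 1 or 2 or ENV replicate 1 or 3 (up to 0.0843). Hspe1 was at 76.5, 78.8 and 120 CPM with buffer against 57.8, 64.0 and 63.9 CPM with ENV, also without overlap, at a log2 change of -0.57 (SE 0.19) and an edgeR adjusted p of 0.0599; with the block it passed (0.035), as it did by DESeq2 (0.0311).

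With LPS, Hspd1 changed by -0.30 (SE 0.22, edgeR adjusted p = 0.336) and Hspe1 by -0.63 (SE 0.20, edgeR adjusted p = 0.0564, and 0.0243 by DESeq2). Dnajc19, which encodes a J protein of the inner membrane import motor, fell with both stimuli. It was at 32.7, 30.7 and 45 CPM with buffer against 22.1, 23.8 and 24.9 CPM with ENV (log2 change -0.61, SE 0.17, edgeR adjusted p = 0.031), and at 26.3, 24.1 and 28.1 CPM with H2O against 14.5, 15.9 and 15.2 CPM with LPS (log2 change -0.78, SE 0.12, edgeR adjusted p = 0.00779). The LPS call was kept without each library in turn; the ENV call was lost without buffer replicate 1 or ENV replicate 1, 2 or 3 (up to 0.105).

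Dnajc28 fell with LPS from 5.07, 5.17 and 4.93 CPM to 2.60, 2.19 and 1.25 CPM (log2 change -1.33, SE 0.33, edgeR adjusted p = 0.0285), a call lost without H2O replicate 1, 2 or 3 or LPS replicate 2 (up to 0.101). Hspa9, the HSP70 of mitochondria, changed by 0.17 (SE 0.12) with ENV and 0.36 (SE 0.16) with LPS and passed with neither (edgeR adjusted p = 0.34 and 0.13). Of 15 other genes of mitochondrial protein quality control, none was called with ENV (4 higher and 0 lower at an unadjusted p under 0.05). With LPS 2 rose, against 16% of all genes tested. They were the stress factor gene Atf5 (log2 change 0.77, SE 0.15, edgeR adjusted p = 0.013) and the import motor gene Pam16 (log2 change 0.72, SE 0.16, edgeR adjusted p = 0.0201).

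Of 28 tested genes for heat shock factors and cytosolic co-chaperones, 3 rose and 2 fell in microglia with ENV and 4 rose and 3 fell with LPS. The shares of all genes tested were 16.2% higher and 14.7% lower with ENV, and 16% and 13.8% with LPS. Hsf1 itself did not pass (log2 change -0.23, SE 0.14, edgeR adjusted p = 0.247 with ENV; 0.21, SE 0.14, edgeR adjusted p = 0.274 with LPS). Hsbp1, which encodes a protein that binds HSF1 trimers and restrains them, rose by 1.29 (SE 0.14, edgeR adjusted p = 0.00101) with ENV and by 1.12 (SE 0.19, edgeR adjusted p = 0.00883) with LPS. Stub1, the ubiquitin ligase gene that links HSP70 to the proteasome, fell by 0.49 (SE 0.14, edgeR adjusted p = 0.0403) and by 0.59 (SE 0.16, edgeR adjusted p = 0.0346). With LPS Hsf2, the gene of a second heat shock factor, fell (log2 change -0.69, SE 0.19, edgeR adjusted p = 0.0354), as did Bag3, a heat-inducible HSP70 exchange factor (log2 change -0.59, SE 0.13, edgeR adjusted p = 0.0219), whereas Bag1, another exchange factor, rose (log2 change 0.92, SE 0.16, edgeR adjusted p = 0.0104). Bag2 fell with ENV (log2 change -0.80, SE 0.19, edgeR adjusted p = 0.0188) and Chordc1, an HSP90 co-chaperone gene, rose (log2 change 0.57, SE 0.14, edgeR adjusted p = 0.0204).

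**Figure D3:**
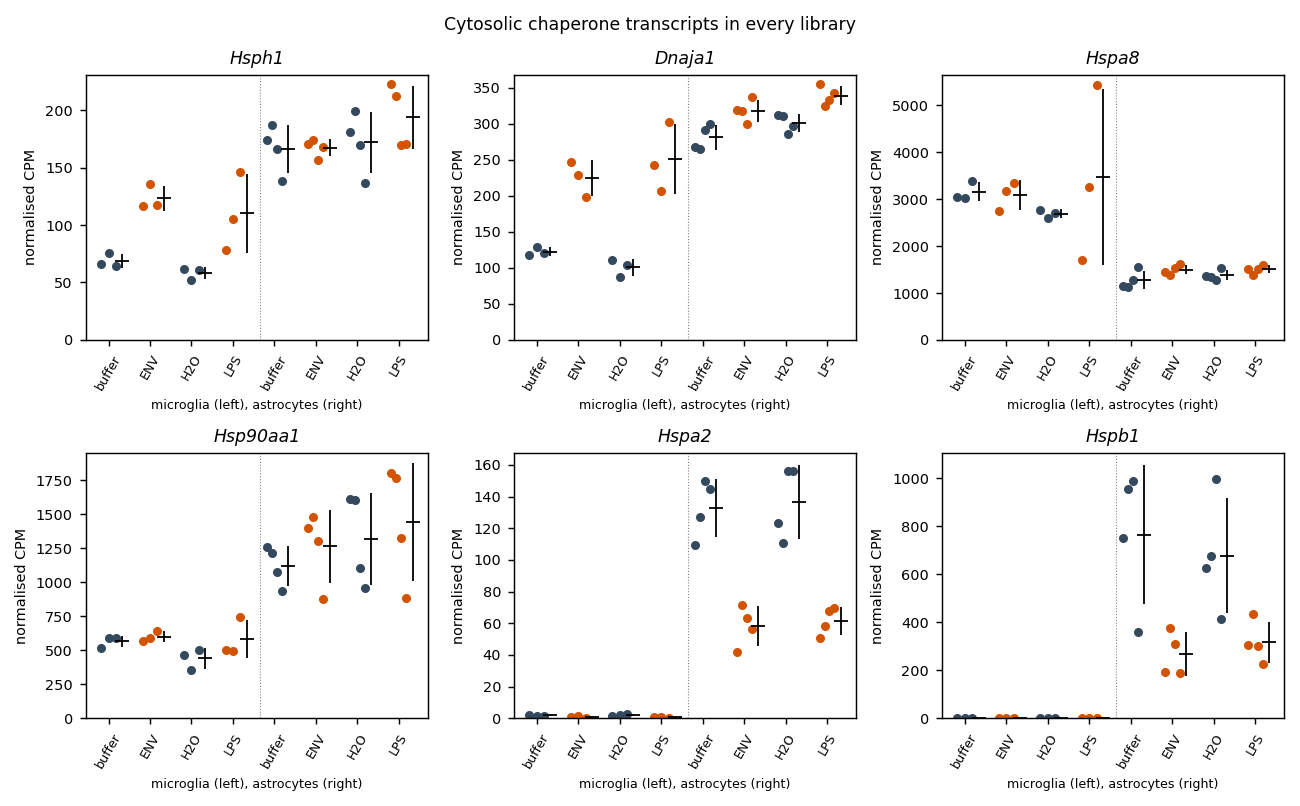
Normalised CPM (y axis, linear from 0) of 6 cytosolic chaperone genes in every library of the 8 groups (x axis), vehicles dark and stimulated cells orange, with black marks for the group mean and bars for the SD (n = 3 in microglia, n = 4 in astrocytes). Hsph1 and Dnaja1 lie above their vehicles in microglia, the LPS points of Hspa8 run from 1705 to 5441 CPM, and Hspa2 and Hspb1 are close to 0 in microglia and lower with ENV and LPS in astrocytes.

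Among the microglial libraries the lists of other cell types also shifted. Of the oligodendrocyte lineage list 3 of 9 tested genes fell with ENV (Mbp, Pdgfra and Sox10), and its sum lay at 292.3 to 304.4 CPM with buffer and 92.52 to 178.4 CPM with ENV. Of the astrocyte list 1 of 11 tested rose with ENV, Glul, which encodes glutamine synthetase, and 1 fell, Slc1a3. With LPS, 1 of 7 tested oligodendrocyte lineage genes fell (Mbp) and none of 6 astrocyte genes was called. Of 5 tested endothelial genes 2 rose with ENV (Pecam1 and Cdh5) and 1 with LPS (Cdh5), with sums of 38.4 to 52.5 CPM with buffer, 91.7 to 191.9 CPM with ENV, 46.1 to 89.4 CPM with H2O and 101.3 to 232.7 CPM with LPS. Of 3 tested granulocyte genes 2 rose with ENV (S100a8 and Camp) and 1 with LPS (Camp), and the sums were 1.76 to 4.26, 6.41 to 20.8, 2.08 to 5.91 and 8.03 to 28.7 CPM in the same order of groups. Both sums were thus higher in every stimulated library than in its vehicles. The median log2 change of the tested endothelial genes was -0.311 with ENV and -0.082 with LPS, so that list did not rise as a whole. Of 9 tested fibroblast and mural genes 1 rose (Pdgfrb) and 2 fell (Acta2 and Tagln) with ENV and 3 fell with LPS (Acta2, Tagln and Col1a2), with sums of 15.8 to 22.5, 13.4 to 17.1, 10.3 to 16.4 and 7.08 to 9.39 CPM. Of the neuronal list 2 of 6 tested fell with ENV (Dcx and Rbfox3), with sums of 28.5 to 55.6 CPM with buffer and 17.1 to 33.4 CPM with ENV, and none of 3 was called with LPS. The part of these shifts in the chaperone values was not tested.

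The response to ENV was next set against the response to LPS within microglia, as an interaction term over both sets of libraries. No chaperone gene differed at an adjusted p under 0.05 (0 of 62), and neither did any of the 13270 genes tested (0%); edgeR gave 6 of the 62 at an unadjusted p under 0.05. Dnajc10 was among these, with a difference of 0.98 (SE 0.23, unadjusted p = 0.0015, edgeR adjusted p = 0.538), since it fell further with LPS. Dnajc3 was another (difference 0.51, SE 0.22, unadjusted p = 0.0467, edgeR adjusted p = 0.703). The ENV and LPS sets of microglia carry different run labels, so stimulus and set cannot be told apart in this comparison.

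In astrocytes 66 of the 74 chaperone genes were tested in each comparison. With ENV 4 rose and 3 fell, against 9.52% of all 14941 genes tested called higher and 8.35% called lower. With LPS none rose and 1 fell, against 2.64% and 2.69% of all 14710 genes tested. At an unadjusted p under 0.05, 6 were higher and 6 lower with LPS, a count without the share of all genes beside it. DESeq2 called 4 higher and 3 lower with LPS, against 6.8% and 7.13% of all 14704 genes it tested. All calls of the edgeR fits without a block were in the cytosolic and nuclear class. No ER gene of 14 was called with either stimulus; at an unadjusted p under 0.05, 2 were higher and 1 lower with ENV and 1 was higher and 0 lower with LPS. With a replicate block, which uses the pairing of same-numbered libraries, 7 rose and 5 fell with ENV, against 14.2% of all genes tested called higher and 14.9% called lower. With LPS 2 rose and 3 fell in the blocked fit, against 7.89% and 9.86%. Among them was 1 ER gene, Dnajc25, in both comparisons.

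Hspa2 fell with both stimuli. It was at 109, 127, 150 and 145 CPM with buffer and at 41.7, 71.4, 63.5 and 56.1 CPM with ENV, and at 123, 111, 156 and 156 CPM with H2O against 50.8, 58.1, 67.5 and 69.4 CPM with LPS. No treated library reached any vehicle library. The log2 change was -1.19 (SE 0.17, edgeR adjusted p = 0.00366) with ENV and -1.15 (SE 0.16, edgeR adjusted p = 0.00864) with LPS, and both calls were kept whichever library was left out. Within pairs of the same number the log2 ratio lay between -0.834 and -1.389 with ENV and between -0.929 and -1.281 with LPS.

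Hspb1, which encodes HSP27, a chaperone that protects actin filaments, was at 752, 954, 990 and 360 CPM with buffer and at 192, 378, 309 and 189 CPM with ENV. ENV replicate 2 lay just above buffer replicate 4, so the groups overlapped, and the gene fell (log2 change -1.52, SE 0.36, edgeR adjusted p = 0.0225). Leaving out buffer replicate 1, 2 or 3 or ENV replicate 1, 3 or 4 lost the call (up to 0.0662). With LPS it was at 305, 434, 301 and 225 CPM against 626, 675, 996 and 414 CPM (log2 change -1.10, SE 0.29, edgeR adjusted p = 0.072), which passed with the block (log2 change -1.07, adjusted p = 0.0168) and by DESeq2 (0.00565).

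Hspb6, which encodes HSP20, was at 95.2, 122, 102 and 49.0 CPM with buffer and at 34.7, 66.2, 48.1 and 21.7 CPM with ENV. In every pair of the same number the ENV library was lower, at log2 ratios of -0.884 to -1.456. The change of -1.11 (SE 0.37) did not pass without the block (edgeR adjusted p = 0.0761) and passed with it (log2 change -1.15, SE 0.10, adjusted p = 0.000955). With LPS the change was -0.94 (SE 0.26, edgeR adjusted p = 0.0814, and 0.00684 with the block). Hspb8, the small heat shock protein that works with Bag3, was at 207, 220, 159 and 93.8 CPM with buffer and 139, 193, 128 and 101 CPM with ENV, and its groups overlapped (log2 change -0.28, SE 0.29, edgeR adjusted p = 0.553; with LPS -0.20, SE 0.26, adjusted p = 0.74). Cryab, the related αB-crystallin gene outside the symbol rule, was lower by 2.29 on the log2 scale with ENV (SE 0.75), which did not pass (edgeR adjusted p = 0.0698).

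Markers of fibroblasts and mural cells, which are known to express Hspb1 and Hspb6, differed in the same libraries. Their sum was 8314, 11985, 10689 and 2776 CPM with buffer against 2080, 3562, 3398 and 1728 CPM with ENV, and 3658, 6325, 10644 and 2930 CPM with H2O against 2023, 2492, 3776 and 2054 CPM with LPS. In the buffer libraries both this sum and Hspb1 were lowest in that numbered 4. In the H2O libraries Hspb1 was also lowest, and this sum low, in that numbered 4. Whether the libraries numbered 4 of the ENV and LPS sets came from separate cultures cannot be taken from the labels. Of the 12 tested genes of that list 3 fell with ENV, the smooth muscle genes Myh11 and Tagln and the matrix gene Fbln1, and of 11 none was called with LPS; none of the list was at 0 throughout. Of the astrocyte list, 5 of 12 fell with ENV (Gjb6, S100b, Gfap, Sox9 and Gja1) and 1 rose (Aqp4), with sums of 10050 to 15237 CPM with buffer and 5812 to 10016 CPM with ENV. Of 14 tested microglial genes 3 fell with ENV (Cx3cr1, Trem2 and P2ry12) and none was called with LPS, with sums of 234.9 to 939.1 CPM with buffer, 158.4 to 529.6 CPM with ENV, 349.9 to 873.4 CPM with H2O and 153.6 to 508.1 CPM with LPS. Of the neuronal list 2 of 6 fell with ENV (Map2 and Stmn2), and Gad1 rose with both stimuli. Its sums were 588.7 to 817.4 CPM with buffer against 277.3 to 472.2 CPM with ENV, without overlap, and 456.2 to 826.1 CPM with H2O against 286.6 to 480.9 CPM with LPS. Of 6 tested ependymal genes 1 fell with ENV (Dnah5) and none was called with LPS. The part of these lists in the falls of Hspb1, Hspb6 and Hspa2 was not tested.

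The genes that rose in astrocytes with ENV included both partners of the ribosome-associated chaperone complex, which receives nascent chains at the exit tunnel. Hspa14 was at 31.8, 32.0, 32.5 and 31.1 CPM with buffer and at 38.6, 39.8, 48.5 and 54.0 CPM with ENV, with no overlap (log2 change 0.51, SE 0.12, edgeR adjusted p = 0.0209). Its partner Dnajc2 was at 33.1, 34.9, 30.1 and 33.6 CPM against 53.5, 49.6, 42.8 and 34.9 CPM (log2 change 0.46, SE 0.13, edgeR adjusted p = 0.0492). ENV replicate 4 of Dnajc2 lay at the level of the highest buffer library. The Hspa14 call was lost without buffer replicate 1, 2 or 3 or ENV replicate 3 (up to 0.0584). The Dnajc2 call was kept in 1 of 8 fits without a library, that without ENV replicate 4, and was lost with DESeq2 size factors (0.0585), with no filter on low counts (0.0614) and in the joint fit (0.178).

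Dnajc12 rose with ENV from 5.14, 5.26, 5.79 and 5.16 CPM to 8.54, 8.57, 12.2 and 11.9 CPM (log2 change 0.95, SE 0.17, edgeR adjusted p = 0.00741), a call kept whichever library was left out. Every ENV library lay above every buffer library. With LPS it was at 7.71, 6.61, 11.1 and 10.5 CPM against 5.82, 5.09, 5.23 and 7.22 CPM, and did not pass (log2 change 0.62, SE 0.22, edgeR adjusted p = 0.155). Dnajc13 was at 212, 154, 160 and 122 CPM with ENV against 117, 121, 88.5 and 95.2 CPM (log2 change 0.62, SE 0.18, edgeR adjusted p = 0.0449). That call was kept in 1 of 8 fits without a library, that without ENV replicate 4, and was lost with DESeq2 size factors (0.0525) and with no filter (0.052); with LPS the change of 0.47 (SE 0.16, edgeR adjusted p = 0.145) passed with the block (0.00711).

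Dnaja4, a type A J-domain gene, was at 77.0, 91.0, 78.1 and 55.9 CPM with buffer against 46.9, 58.0, 48.5 and 56.2 CPM with ENV. Buffer replicate 4 lay within the ENV group, and the gene fell (log2 change -0.53, SE 0.15, edgeR adjusted p = 0.0429). The call was lost without buffer replicate 1, 2 or 3 or ENV replicate 1, 3 or 4 (up to 0.111). Hsp90ab1 was at 1411, 1326, 1351 and 1426 CPM with ENV against 1042, 1018, 1061 and 1306 CPM, all higher without overlap; its change of 0.32 (SE 0.12, edgeR adjusted p = 0.096) passed with the block (0.0484) and by DESeq2 (0.024). Hspa4 likewise passed with the block and not without it (log2 change 0.25, SE 0.09, edgeR adjusted p = 0.0997, and 0.049 with the block). Dnajc6, which encodes auxilin, the J protein that uncoats clathrin vesicles, was at 2.51, 3.44, 2.19 and 1.78 CPM with ENV against 4.35, 4.26, 4.83 and 3.08 CPM with buffer. The groups overlapped, and the gene passed with the block (log2 change -0.75, SE 0.20, adjusted p = 0.0315) and not without it (-0.73, SE 0.26, edgeR adjusted p = 0.0833).

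The ER chaperones that rose in microglia did not pass in astrocytes. Hsp90b1 was at 963, 1087, 956 and 696 CPM with buffer and at 883, 899, 973 and 789 CPM with ENV (log2 change -0.06, SE 0.15, edgeR adjusted p = 0.818). Hspa5 was at 714, 875, 739 and 472 CPM with buffer and at 594, 657, 751 and 699 CPM with ENV (log2 change -0.05, SE 0.18, edgeR adjusted p = 0.88). With LPS the changes were 0.04 (SE 0.18, edgeR adjusted p = 0.938) and 0.06 (SE 0.18, edgeR adjusted p = 0.89). The groups overlapped throughout, and the sum over the 14 ER genes was 1900 to 2849 CPM with buffer and 2240 to 2547 CPM with ENV. Dnajc25, a membrane J protein gene, was at 21.6, 23.7, 15.0 and 12.9 CPM with ENV against 13.6, 15.8, 9.59 and 10.4 CPM, and passed with the block (log2 change 0.55, SE 0.11, adjusted p = 0.0116; with LPS 0.52, SE 0.12, adjusted p = 0.033).

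Of the other ER folding and unfolded protein response genes, 6 of 34 rose and 2 fell in astrocytes with ENV, and 2 rose with LPS. The shares of all genes tested were 9.52% higher and 8.35% lower with ENV, and 2.64% higher with LPS. Ddit3 rose by 1.57 (SE 0.15, edgeR adjusted p = 0.000684) with ENV and by 1.54 (SE 0.19, edgeR adjusted p = 0.00773) with LPS. Trib3, a feedback regulator of the same branch, rose from a mean of 0.177 CPM to 1.5 CPM with ENV (log2 change 3.06, SE 0.73, edgeR adjusted p = 0.0234) and from 0.324 to 1.5 CPM with LPS (log2 change 2.20, SE 0.50, edgeR adjusted p = 0.0429). Chac1, a glutathione-degrading enzyme gene, rose with ENV by 0.83 (SE 0.20, edgeR adjusted p = 0.0253) and Asns, the asparagine synthetase gene, by 0.50 (SE 0.11, edgeR adjusted p = 0.0176). P4hb rose by 0.42 (SE 0.11, edgeR adjusted p = 0.033), whereas Sil1, a BiP exchange factor gene, fell by 0.38 (SE 0.11, edgeR adjusted p = 0.0471).

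Of the 28 heat shock factor and co-chaperone genes 6 rose and none fell with ENV in astrocytes, against 9.52% and 8.35% of all genes tested. At an unadjusted p under 0.05, 3 were lower. Bag4, an HSP70 exchange factor gene that also silences TNF receptor signalling, rose by 1.15 (SE 0.24, edgeR adjusted p = 0.0135). Chordc1 rose by 0.42 (SE 0.08, edgeR adjusted p = 0.00833), and Stip1, which encodes the adaptor that joins HSP70 to HSP90, by 0.37 (SE 0.08, edgeR adjusted p = 0.0175). With LPS none of the 28 was called (5 higher and 0 lower at an unadjusted p under 0.05), against 2.64% and 2.69% of all genes tested.

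Among the mitochondrial chaperones of astrocytes, the pairs of Hspd1 and Hspe1 did not move in 1 direction. Hspd1 was at 472, 430, 325 and 345 CPM with H2O and at 637, 653, 328 and 283 CPM with LPS, so that the LPS libraries numbered 1 and 2 lay above all vehicles and those numbered 3 and 4 did not. Within pairs of the same number its log2 ratio was 0.434, 0.603, 0.013 and -0.286, and the change of 0.27 (SE 0.30) did not pass (edgeR adjusted p = 0.671). Hspe1 gave 0.432, 0.222, -0.358 and -0.268 in the same order. With ENV the ratios were 0.366, 0.401, -0.089 and -0.356 for Hspd1 and 0.066, 0.399, -0.437 and -0.106 for Hspe1. Whether the ENV and LPS sets share cultures cannot be taken from the labels. Their vehicle libraries numbered 3 and 4 were close in markers such as Acta2. It was at 3015 and 143 CPM in buffer replicates 3 and 4, and at 2894 and 156 CPM in the H2O replicates. The sets are therefore not read as independent repeats. The histone chaperone gene Dnajc9 gave 0.053, 0.18, -0.375 and -0.578 with LPS. Of the 10 mitochondrial genes none was called with either stimulus; at an unadjusted p under 0.05, none passed with ENV and 1 was lower with LPS.

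**Figure D4:**
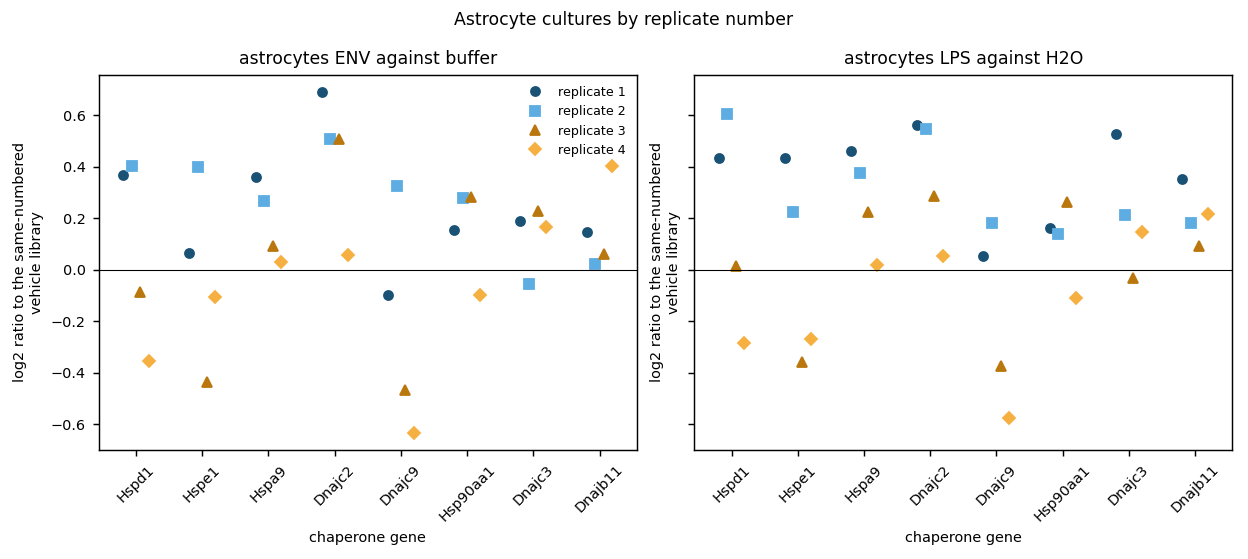
Log2 ratio of the stimulated library to the vehicle library of the same number (y axis) for 8 chaperone genes (x axis) in astrocytes, with ENV on the left and LPS on the right and 1 symbol per replicate number; the genes were chosen after their values were seen. For Hspd1 the replicates 1 and 2 lie at 0.366 and 0.401 with ENV and 0.434 and 0.603 with LPS, and replicate 4 lies below 0 in both panels.

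The response to ENV did not differ from that to LPS in astrocytes for any of 67 chaperone genes or for any of 15496 genes (0%, edgeR interaction term at an adjusted p under 0.05); no chaperone gene reached an unadjusted p under 0.05. This does not show that the responses were alike. For Hspa2 the log2 changes were -1.19 and -1.15, for Hspb1 -1.52 and -1.10 and for Dnajc12 0.95 and 0.62.

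Whether the responses differed between the cell types was tested as the change in microglia minus the change in astrocytes. With ENV 9 of 65 chaperone genes differed, against 14.9% of 13378 genes, and with LPS 8 of 64, against 12.5% of 13284 genes. With the replicate block these counts were 14 and 13, against 24.8% and 22.8% of the same genes. The median of all genes was -0.064 with ENV and -0.123 with LPS, so the LPS differences are read relative to a shift of that size. Of the 14 ER genes 3 differed with ENV, all toward microglia, and with LPS 1 differed toward microglia and 2 in the other direction.

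Hsp90b1 differed by 1.12 with ENV (SE 0.20, edgeR adjusted p = 0.00294), Dnajc1 by 0.76 (SE 0.15, edgeR adjusted p = 0.00615) and Hspa5 by 0.80 (SE 0.25, edgeR adjusted p = 0.0491). In the cytosol Hsph1 differed by 0.83 (SE 0.16, edgeR adjusted p = 0.0044) and Dnaja1 by 0.69 (SE 0.13, edgeR adjusted p = 0.00479). These 5 genes rose in microglia and did not pass in astrocytes. The differences of Hsp90b1, Dnajc1, Hsph1 and Dnaja1 were kept in all 14 fits that left out a library. That of Hspa5 was kept in 2 of them, those without microglial buffer replicate 3 or astrocyte buffer replicate 4, and ranged from 0.74 to 0.96 with an adjusted p up to 0.108. With the block Dnajb11 differed as well (0.62, SE 0.13, adjusted p = 0.0115), as did Hspb6 (0.65, SE 0.21, adjusted p = 0.0499).

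In the opposite direction with ENV, Dnajc12 differed by -1.46 (SE 0.25, edgeR adjusted p = 0.00219) and Hspa14 by -1.09 (SE 0.22, edgeR adjusted p = 0.00545), and both were kept in all 14 fits. Hspa14 fell in microglia and rose in astrocytes, and Dnajc12 rose in astrocytes and was lower in microglia without passing there. Dnajc21 differed by -0.85 (SE 0.22, edgeR adjusted p = 0.0229), which was lost without microglial buffer replicate 2 or ENV replicate 3 (up to 0.0618). Dnajc2 differed by -0.63 (SE 0.19, edgeR adjusted p = 0.0434), kept only in the fit without astrocyte ENV replicate 4. Another 3 genes differed in this direction with the block alone: Dnajc10 by -0.59 (SE 0.17, edgeR adjusted p = 0.0394), Dnajc9 by -0.78 (SE 0.23, adjusted p = 0.0377) and Hspbap1 by -0.72 (SE 0.21, adjusted p = 0.0358). Without it their adjusted p was 0.126, 0.123 and 0.072.

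With LPS, Dnaja1 differed by 1.14 (SE 0.20, edgeR adjusted p = 0.0043) and Dnajc1 by 1.23 (SE 0.35, edgeR adjusted p = 0.038). Dnajc10 differed by -1.53 (SE 0.26, edgeR adjusted p = 0.00333), Dnajb14 by -1.19 (SE 0.20, edgeR adjusted p = 0.00303), Dnajc12 by -2.03 (SE 0.46, edgeR adjusted p = 0.0147) and Hspa14 by -1.11 (SE 0.27, edgeR adjusted p = 0.0194). Dnajb4 differed by -1.09 (SE 0.32, edgeR adjusted p = 0.042) and Hspbap1 by -0.78 (SE 0.20, edgeR adjusted p = 0.0281). Dnaja1, Dnajc10 and Dnajb14 were kept in all 14 fits without a library, and Dnajc12 and Hspa14 in all but that without astrocyte H2O replicate 3. Dnajc1 lost its call in 9 of the fits, those without any microglial H2O library, without astrocyte H2O replicate 1, 2 or 4 or without astrocyte LPS replicate 1, 3 or 4 (up to 0.0782). Dnajb4 lost it in 10 and Hspbap1 in 8 fits, each time also without microglial H2O replicate 2 or 3 or LPS replicate 2 or astrocyte H2O replicate 1, 3 or 4 or LPS replicate 3. Both also changed with a further library: Dnajb4 without microglial H2O replicate 1, LPS replicate 3 or astrocyte LPS replicate 4, and Hspbap1 without astrocyte H2O replicate 2. With the block 5 more genes passed the edgeR test. Dnajb11 differed by 0.51 (SE 0.15, adjusted p = 0.0399) and Hspa4l by 1.91 (SE 0.35, adjusted p = 0.0078), both toward microglia. In the other direction Dnajc21 differed by -0.84 (SE 0.25, adjusted p = 0.0435), Dnajc28 by -1.04 (SE 0.29, adjusted p = 0.0342) and Dnajc9 by -1.35 (SE 0.37, adjusted p = 0.0345). Without the block the adjusted p of these genes lay between 0.052 and 0.342.

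**Figure D5:**
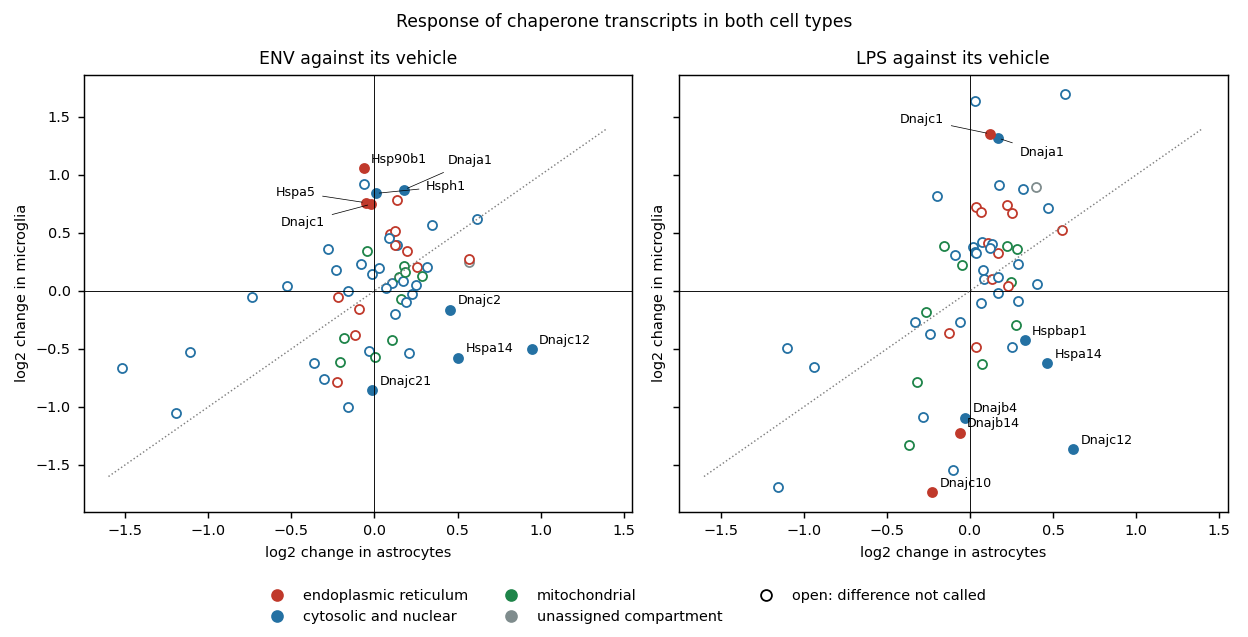
Log2 change in microglia (y axis) against that in astrocytes (x axis) for each chaperone gene tested in both, with ENV on the left and LPS on the right, coloured by compartment; the dotted line marks equal changes. Filled, named points differed between the cell types by the interaction term (9 with ENV, 8 with LPS), and Hsp90b1, Dnaja1, Hsph1, Hspa5 and Dnajc1 lie high on the left panel near 0 in astrocytes.

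Levels in the cell types are set side by side without a test, because the tables were made separately and list different genes. Hspb1 lay between 0.775 and 1.92 CPM in the vehicle-treated microglia and between 360 and 996 CPM in the vehicle-treated astrocytes, and Hspb8 between 0.0927 and 0.872 CPM and between 93.8 and 227 CPM. Hspa2 lay between 1.49 and 2.42 CPM and between 109 and 156 CPM, and Hspa4l, an HSP110 relative, between 0.264 and 6.06 CPM and between 134 and 196 CPM. Hspa8 went the other way, at 2591 to 3391 CPM in vehicle-treated microglia and 1126 to 1559 CPM in vehicle-treated astrocytes. The sum of the ER genes was 1599 to 1859 CPM in vehicle-treated microglia and 1900 to 2849 CPM in vehicle-treated astrocytes, and reached 2977 to 3227 CPM in microglia with ENV.

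Hspa1a and Hspa1b, the inducible HSP70 genes that heat shock raises most, were low in astrocytes. Hspa1a lay between 0.166 and 1.20 CPM and Hspa1b between 2.08 and 7.62 CPM over all 16 libraries. Their groups overlapped, and the changes did not pass with ENV (log2 change 0.07, SE 0.32, edgeR adjusted p = 0.914, and -0.37, SE 0.34, edgeR adjusted p = 0.5) or with LPS (-0.99, SE 0.50, edgeR adjusted p = 0.315, and -0.09, SE 0.47, edgeR adjusted p = 0.945). The 2 genes are near-identical, so reads between them could not be separated with certainty. The chaperone genes not tested for too few counts in microglia were Dnajb3, Dnajb7, Dnajb8, Dnajc5b, Dnajc5g, Hspa12a, Hspa12b, Hspa1l, Hspb3 and Hspb7 in both comparisons, Hspb9 with ENV and Dnajc6 with LPS. In astrocytes they were Dnajb7, Hspa12b and Hspb7, and Dnajc5b with LPS.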

How the data were processed

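The authors deposited gene counts for 28 libraries of poly(A)-captured RNA, made from 150 ng of total RNA each, per the labels' protocols. Per the submitters' processing notes, HISAT2, StringTie 1.3.3b and the build mRatBN7.2 were used; their roles and settings, the annotation and the strand setting remain not given in the sources used here. From the counts as deposited, edgeR 4.0.16 (R 4.3.3) was run with TMM scaling, its filter on low counts and the quasi-likelihood test over all genes, with Benjamini-Hochberg adjustment, in each of the 4 comparisons with vehicle and as interaction terms in the 4 differences between responses. The chaperone genes were read from those fits.

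The chaperone genes, gene lists, markers and motifs were chosen with earlier results of these data known. Described genes were a panel of 22 core chaperones and, per comparison and direction, up to 8 called genes with the largest change and a mean of at least 1 CPM, plus up to 5 called genes per list and direction outside the chaperones. Called genes beyond these 8, and Hspb6, Hspb9, Hspa4l, Dnajc6, Dnajc25, Hspbap1, Hsf1, Cryab and genes called with the block alone, were named after their values were seen.

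The replicate numbers were taken to pair the samples in the fits with a replicate block and in the ratios within pairs. All other fits, with the main calls and their p-values, were unpaired. After removal of group means, same-numbered libraries correlated at 0.26 to 0.637, every pair above 0.1. Stimulated libraries correlated best with the vehicle of the same number, except astrocyte LPS replicate 2, which correlated best with H2O replicate 1. The pairing comes from the numbers in the titles, and results with a replicate block are given where they change a call. Alternatives were DESeq2 size factors, DESeq2 1.42.0, no filter on low counts, a joint fit of the 4 groups of a cell type, the block, each library left out, and both microglial LPS-set libraries numbered 3 left out. No 2 replicates of a group held the same library within sampling noise. The models were tested on simulated data.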

Additional observations from a re-analysis of the deposited data

Results flagged for a closer look

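In astrocytes each check took 1 gene or class sum in 1 group of 4 libraries. In 2 of 100 checks a library lay far from the others by Dixon's test. Chance gives about 5% for independent checks, whereas these share the same libraries. Hsp90ab1 in the buffer group had a ratio of gap to range of 0.851, since replicate 4 was at 1306 CPM and the others at 1018 to 1061 CPM. Hsp90b1 in the H2O group had a ratio of 0.893, since replicate 4 was at 714.7 CPM and the others at 981.4 to 1013 CPM.

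The response differed between the cell types by the interaction term for 17 values on the log2 scale, as microglia minus astrocytes. With ENV these were Hsp90b1 (1.12), Hsph1 (0.83), Hspa5 (0.80), Dnajc1 (0.76) and Dnaja1 (0.69), and in the other direction Dnajc12 (-1.46), Hspa14 (-1.09), Dnajc21 (-0.85) and Dnajc2 (-0.63). With LPS they were Dnajc1 (1.23) and Dnaja1 (1.14), and in the other direction Dnajc12 (-2.03), Dnajc10 (-1.53), Dnajb14 (-1.19), Hspa14 (-1.11), Dnajb4 (-1.09) and Hspbap1 (-0.78).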

How the results depend on the processing

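With 1 library left out, the number of chaperone genes called in microglia ranged from 6 to 13 higher and 3 to 10 lower with ENV, and from 2 to 10 higher and 3 to 11 lower with LPS. The lowest LPS counts, 2 higher and 3 lower, came without H2O replicate 2 and H2O replicate 1, and the lowest ENV counts without buffer replicate 1. In astrocytes they ranged from 1 to 4 higher and 1 to 6 lower with ENV, and were 0 higher and 1 to 3 lower with LPS. The differences between cell types ranged from 6 to 10 genes with ENV and 4 to 10 with LPS, and no ENV response differed from the LPS response in any of these fits. The share of all genes called was not taken for the fits without 1 library. These ranges are therefore not read as particular to chaperone genes. Without both microglial libraries numbered 3 of the LPS set, 9 were higher (17.4% of all genes) and 11 lower (17.5%), of which 7 and 7 were among those called with all libraries.

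In astrocytes with ENV, 2 were called higher with DESeq2 size factors (8.57% of all genes) and 2 with no filter on low counts (6.24%), and 6 lower by DESeq2 (12.6%). With LPS, DESeq2 called 4 higher (6.8%) and 3 lower (7.13%), and the joint fit 1 higher (5.76%) and 2 lower (5.44%). With the replicate block, astrocytes gave 7 higher (14.2%) and 5 lower (14.9%) with ENV and 2 higher (7.89%) and 3 lower (9.86%) with LPS, and the cell types differed in 14 genes with ENV (24.8%) and 13 with LPS (22.8%). The block moved no other count of calls by over 1.5 times. The causes were not tested.

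Under these alternatives, directions turned only for genes that had not passed in that comparison. Without both libraries numbered 3, the microglial LPS change of Hspa8 was -0.11, of Dnajc3 -0.11, of Dnajc2 -0.067 and of Dnaja4 0.29. In astrocytes with ENV, Hsph1 was at -0.017 with DESeq2 size factors, -0.017 by DESeq2 and -0.013 in the joint fit, and Hspe1 at -0.024 with DESeq2 size factors and by DESeq2, -0.0041 with no filter, -0.020 in the joint fit and -0.020 with the block. With 1 library left out, log2 changes with a turned sign ranged as follows. In microglia with ENV they were Dnaja4 -0.066 to 0.16, Dnajb1 -0.12 to 0.13, Hspa4 -0.068 to 0.13, Hspa8 -0.0901 to 0.053 and Hspb8 -0.12 to 0.73. In microglia with LPS they were Dnaja4 -0.45 to 0.14, Dnajc2 -0.21 to 0.21, Dnajc3 -0.087 to 0.17, Hspa4 -0.18 to 0.10, Hspa8 -0.11 to 0.68 and Hspb8 -1.82 to 1.31. In astrocytes with ENV they were Dnajb1 -0.068 to 0.17, Dnajb4 -0.16 to 0.074, Dnajc1 -0.065 to 0.0034, Dnajc21 -0.13 to 0.0499, Hsp90b1 -0.18 to 0.016, Hspa1a -0.12 to 0.15, Hspa5 -0.20 to 0.066, Hspe1 -0.11 to 0.11 and Hsph1 -0.073 to 0.062. In astrocytes with LPS they were Dnajb1 -0.11 to 0.12, Dnajb4 -0.22 to 0.095, Dnajb9 -0.12 to 0.14, Dnajc9 -0.30 to 0.085, Hsp90aa1 -0.003 to 0.31, Hsp90b1 -0.11 to 0.12, Hspa1b -0.41 to 0.20, Hspa5 -0.0495 to 0.14 and Hspe1 -0.14 to 0.25. Hspb8, at a depth-limited 0.0843 to 1.72 CPM in microglia, changed with LPS by 0.82 with an SE of 1.25, the largest SE of the chaperone genes in that comparison.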
